A study of Mus musculus with 12 samples.

Results

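The measurements concern a difference between replicate 1 and replicate 2 that was alike in 3 groups of 2 genotypes and both cell types. It was taken from 6 of the 12 arrays, replicates 1 and 2 of follicular Bcl6(+/flox), follicular Bcl6(flox/flox) and marginal zone Bcl6(flox/flox) B cells. The 3 groups were chosen by these same measured values, because their replicate differences were alike, so values from these 6 arrays are a description and carry no test. Marginal zone Bcl6(+/+) cells, which were not among the 3 groups, showed most of the same differences, and the other 2 groups did not. Each array measured total RNA from B cells sorted from spleens, and the mice were 10-week-old C57BL/6 females. Every mouse carried mb1-cre(+/-), which expresses Cre in the B lineage, with 0 floxed Bcl6 alleles in Bcl6(+/+), 1 in Bcl6(+/flox) and 2 in Bcl6(flox/flox) mice. They are called wild-type (wt), heterozygous (het) and homozygous (hom) here, and all 3 genotypes carry Cre. Magnetic depletion first removed T cells (CD3, CD5, CD90), myeloid cells (CD11b, Gr-1, F4/80), erythroid cells (TER119) and activated or plasma cells (CD43, CD95, CD138). Follicular (FO) cells were then sorted as B220+AA4.1-CD21intCD23+, and marginal zone (MZ) cells as CD21highCD23low. The labels do not say whether replicates 1 and 2 were separate mice, so a p-value here reflects only the spread among these samples, which may be technical. They give no separate day or batch for the replicate numbers.

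FO B cells recirculate through splenic follicles, whereas MZ B cells stay at the edge of the white pulp and respond quickly to blood-borne antigens. Signals through the B cell receptor and other stimuli, including mechanical and thermal stress during cell isolation, induce immediate early genes within minutes without new protein synthesis. Many of these encode transcription factors of the AP-1, EGR and NR4A families, and a delayed wave encodes phosphatases and NF-kB inhibitors that terminate the signal.

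Values are log2 levels after GCRMA, a method that corrects background by probe sequence, and differences are in log2 units, replicate 1 minus replicate 2 within a group. Low values collect at a minimum of 2.21262 on FO and 2.21924 on MZ arrays, and the size of a difference from a level within 0.5 of it depends on the background correction. The targeted gene had 2 probe sets. The one with the higher signal read 11.65 to 12.11 on the FO wt and het arrays and 12.70 and 12.88 on the FO hom arrays, and 8.29 to 9.44 on the MZ wt and het arrays and 9.95 and 10.37 on the MZ hom arrays. The one with the lower signal read 4.86 to 5.61 on the FO wt and het arrays, 2.36 and 2.48 on the FO hom arrays, and 2.22 on every MZ array. Which Bcl6 exons were deleted, and which exons each probe set covers, is not stated in the labels, so neither probe set checks the genotypes. B cell identity matched the labels: the 7 measured B cell markers averaged 12.31 to 13.04 on the 12 arrays. The 9 measured marginal zone markers averaged 11.04 to 11.63 on MZ arrays and 8.36 to 8.88 on FO arrays. One array, MZ wt replicate 1, stood apart in its labelling controls. Its Gapdh 3' signal exceeded the 5' signal by 6.90, against -0.20 to 0.63 on the other 11 arrays, and its beta-actin difference was 2.19 against 0.64 to 1.07. In the 3 groups described, the Gapdh difference was higher on replicate 1 than on replicate 2, at 0.25 and -0.08 in FO het, 0.36 and -0.17 in FO hom, and 0.04 and -0.20 in MZ hom. The direction was the same in MZ het, at 0.05 and -0.14, where the moved genes described below did not show the difference, and the opposite in FO wt, at 0.03 and 0.63. The beta-actin difference was 0.73 and 0.75 on replicates 1 and 2 of FO het, 0.95 and 0.64 in FO hom, and 0.94 and 0.82 in MZ hom. The part of these controls in the replicate difference was not tested.

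Of 9306 tested genes, 90 were higher on replicate 1 by at least 1 in each of the 3 pairs and 89 were lower by at least 1 in each. These are 0.967% and 0.956% of tested genes, shares that the rule itself fixed. They are called the moved-up and moved-down genes. The mean level of the moved-up genes was 8.81 and 6.62 on FO het replicates 1 and 2, 9.16 and 6.84 in FO hom, and 8.97 and 6.68 in MZ hom. The moved-down genes averaged 6.31 and 7.97, 6.12 and 7.75, and 6.18 and 7.69 on the same arrays. Replicate 1 and replicate 2 levels did not overlap over the 3 groups for 76 of the 90 and 83 of the 89 genes. The rule asked for a gap in each pair on these same arrays, so this count adds no support. It was not made over all tested genes. In 4 of the moved-up and 3 of the moved-down genes, all 3 lower arrays lay within 0.5 of the minimum. At least 1 lower array did so in 19 moved-up and 4 moved-down genes. Nr4a3, Apol8, C730049O14Rik, Rgcc and Ccl3, described below, are among these, so the sizes of their differences are uncertain. At the edge of the rule, Rem2 was just inside with differences of 1.01, 1.72 and 1.54 in FO het, FO hom and MZ hom, and Myb was just outside with 1.81, 1.53 and 0.9998. On the lower side Cep83os was just inside with -1.17, -1.44 and -1.01, and Zfp217 just outside with -1.15, -1.03 and -0.99. Across genes, which are not independent replicates and share labelling and normalization, the replicate differences correlated between groups with Pearson r of 0.77 for FO het with FO hom, 0.62 for FO het with MZ hom and 0.68 for FO hom with MZ hom. Of 57 moved genes with more than 1 probe set past the filter, 53 had the same sign in every probe set. This count includes the probe set that met the rule and was not made over all tested genes, so it adds no support. Sign also hides size. Another probe set averaged 0.29 for Rgs2, 0.33 for Pfkl, 0.20 for Psmd9, 0.01 for Depdc5 and -0.68 for S1pr3. Ubl5, Pus3, Shprh and Slc15a2 had a probe set of the opposite sign, at 1.93 for Pus3.

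**Figure D1:**
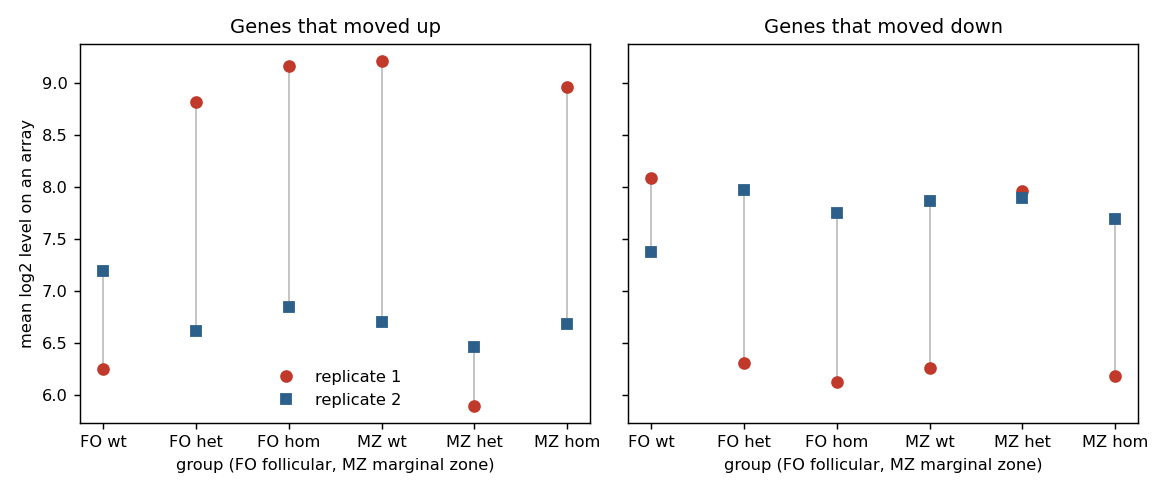
Mean log2 level of the 90 moved-up genes (left) and the 89 moved-down genes (right) on each of the 12 arrays, with circles for replicate 1 and squares for replicate 2 joined by a grey line within each group. Replicate 1 is high for the moved-up genes in FO het, FO hom and MZ hom (8.81 to 9.16), the groups that chose the genes, and also in MZ wt (9.21), while in FO wt (6.25) and MZ het (5.89) it lies below replicate 2.

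Among AP-1 family members, which pair through leucine zippers and bind a shared DNA site, 5 of 11 tested genes were moved up and none moved down, and 10 of 11 had a positive mean difference. The list median was 1.06, beside -0.02 over all tested genes. For this and the later lists, 90 of all 9306 tested genes were moved up and 89 moved down. A positive mean was found in 4376 of them and a negative mean in 4915. Atf3, a stress-induced member, was the third largest of the moved-up genes. It read 8.57 and 3.39 on FO het replicates 1 and 2, 10.39 and 4.79 in FO hom, 12.20 and 6.43 in MZ hom, 12.80 and 6.24 in MZ wt, 3.46 and 4.20 in FO wt, and 2.69 and 4.65 in MZ het. Replicate 1 was high in FO het, FO hom, MZ hom and MZ wt, at 8.57 or more, and 6.43 was the highest level on any other array. The mean of the 3 pairs was 5.52 ± 0.30 (SD, n = 3 pairs). Fosl2, which encodes the FOS relative FRA2, read 6.15 and 2.91 in FO het, 9.87 and 4.78 in FO hom, 7.39 and 2.98 in MZ hom, 7.43 and 2.49 in MZ wt, 2.53 and 3.24 in FO wt, and 2.22 and 2.73 in MZ het. Its difference was 4.24 ± 0.93, with the FO hom pair (5.09) above the FO het pair (3.24). Maff, a small MAF protein that lacks an activation domain, differed by 3.53, 4.47 and 3.95 in the 3 pairs, and replicate 2 of MZ hom lay at 2.26, near the minimum.

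Fosb behaved differently outside the 3 groups. It read 11.20 and 9.87 on FO het replicates 1 and 2, 11.93 and 10.24 in FO hom, 11.56 and 9.55 in MZ hom, 12.16 and 10.15 in MZ wt, 5.12 and 12.13 in FO wt, and 4.84 and 9.59 in MZ het. Its lowest levels were therefore on replicate 1 of FO wt and MZ het, and FO wt replicate 2 was as high as any replicate 1 but that of MZ wt. The difference of 1.67 ± 0.34 in the 3 pairs faced -7.01 in FO wt and -4.76 in MZ het. Fos, named after its values were seen, differed by -0.15, -0.01 and 1.07 in the 3 pairs and so was not a moved gene, but by -3.41 in FO wt and -2.35 in MZ het. Maf, the large MAF factor of this list, differed by 1.84, 1.02 and 1.84 in FO het, FO hom and MZ hom.

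The proximal promoters of Fosl2 and Maff are shown because they hold matches to the sites searched. Both are from RefSeq on build GRCm38.p6, from 250 bases before to 50 after the annotated start. Capitals mark matches on either strand to 8 motifs: the cyclic AMP response element TGACGTCA, the AP-1 site TGANTCA, the EGR site GCGTGGGCG, the E-box CACGTG, the ETS site CCGGAAGT, the heat shock repeat GAANNTTC, the CArG box and the NF-kB site. Fosl2 lies at chr5:32136222-32136521 on the + strand, and Maff at chr15:79347270-79347569 on the + strand, the second of its 3 annotated starts, chosen after the search because it held the most matches.
Fosl2: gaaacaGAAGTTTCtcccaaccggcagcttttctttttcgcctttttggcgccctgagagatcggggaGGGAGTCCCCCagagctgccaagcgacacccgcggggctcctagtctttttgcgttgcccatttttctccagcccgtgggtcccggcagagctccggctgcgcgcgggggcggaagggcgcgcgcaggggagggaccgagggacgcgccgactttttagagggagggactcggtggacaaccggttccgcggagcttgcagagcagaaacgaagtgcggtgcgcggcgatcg
Maff: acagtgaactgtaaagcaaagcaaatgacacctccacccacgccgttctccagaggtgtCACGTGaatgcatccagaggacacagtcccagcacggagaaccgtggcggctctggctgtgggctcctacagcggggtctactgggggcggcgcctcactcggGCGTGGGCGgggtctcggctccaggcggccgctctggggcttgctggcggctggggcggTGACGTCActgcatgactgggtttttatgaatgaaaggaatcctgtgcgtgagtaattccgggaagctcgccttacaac
In Fosl2 the first capitals are the heat shock repeat and the second run is 2 overlapping NF-kB matches. In Maff the capitals are, in order, an E-box, an EGR site and a cyclic AMP response element. The windows of Atf3 and Nr4a2 held no match to these letters. The cyclic AMP response element occurred in 1.79% of all 32851 promoters and in 3.84% of the 7662 tested genes with a promoter. It occurred in 6 of the 72 moved-up genes with one (Errfi1, Maff, Plk2, Ppp1r15a, Trp53inp2 and Zbtb21) and 1 of 76 moved-down genes. The E-box occurred in 7.15% of promoters, 12.6% of tested genes, 16 of 72 moved-up and 8 of 76 moved-down genes. The NF-kB site, in the same order, occurred in 4.51%, 5.81%, 11 of 72 (including Rel, Tnfaip3, Nr4a1 and Fosb) and 8 of 76. The ETS site occurred in 3.89%, 10.7%, 0 of 72 and 9 of 76. The AP-1 site was in 7.81%, 5.36%, 4 of 72 and 6 of 76, the EGR site in 0.612%, 1.51%, 3 of 72 and 0 of 76, and the CArG box, the site of serum response factor, in 1.63%, 1.54%, 1 of 72 and 0 of 76. The heat shock repeat was in 7.86%, 6.75%, 3 of 72 and 5 of 76. A match is a description of these letters and says nothing of binding.

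All 3 NR4A genes, which encode orphan nuclear receptors induced by B cell receptor signals, were moved up. Of 8 tested EGR and NR4A list members, 3 were moved up, none moved down and 7 had a positive mean, with a list median of 1.24. Nr4a2 read 9.99 and 5.36 on FO het replicates 1 and 2, 11.01 and 7.63 in FO hom, 12.03 and 8.22 in MZ hom, 11.80 and 7.37 in MZ wt, 2.21 and 7.92 in FO wt, and 2.40 and 6.54 in MZ het. Replicate 1 levels of the 3 groups, 9.99 to 12.03, lay above those of replicate 2, 5.36 to 8.22, and FO wt replicate 1 was at the minimum. The difference was 3.94 ± 0.63 (SD, n = 3 pairs). Nr4a3 read 6.51 and 2.63, 6.30 and 2.70, and 7.82 and 3.93 in the 3 groups, a difference of 3.78 ± 0.16. Its 4 levels in FO wt and MZ het, 2.96 to 3.63, lay within the replicate 2 range of the 3 groups, unlike those of Nr4a2. Nr4a1 differed by 1.87 ± 0.29 in the 3 pairs, from replicate 2 levels of 10.62 to 11.14. Egr2, an early zinc finger factor, differed by 1.43, 0.89 and 1.68 and missed the rule through FO hom.

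**Figure D2:**
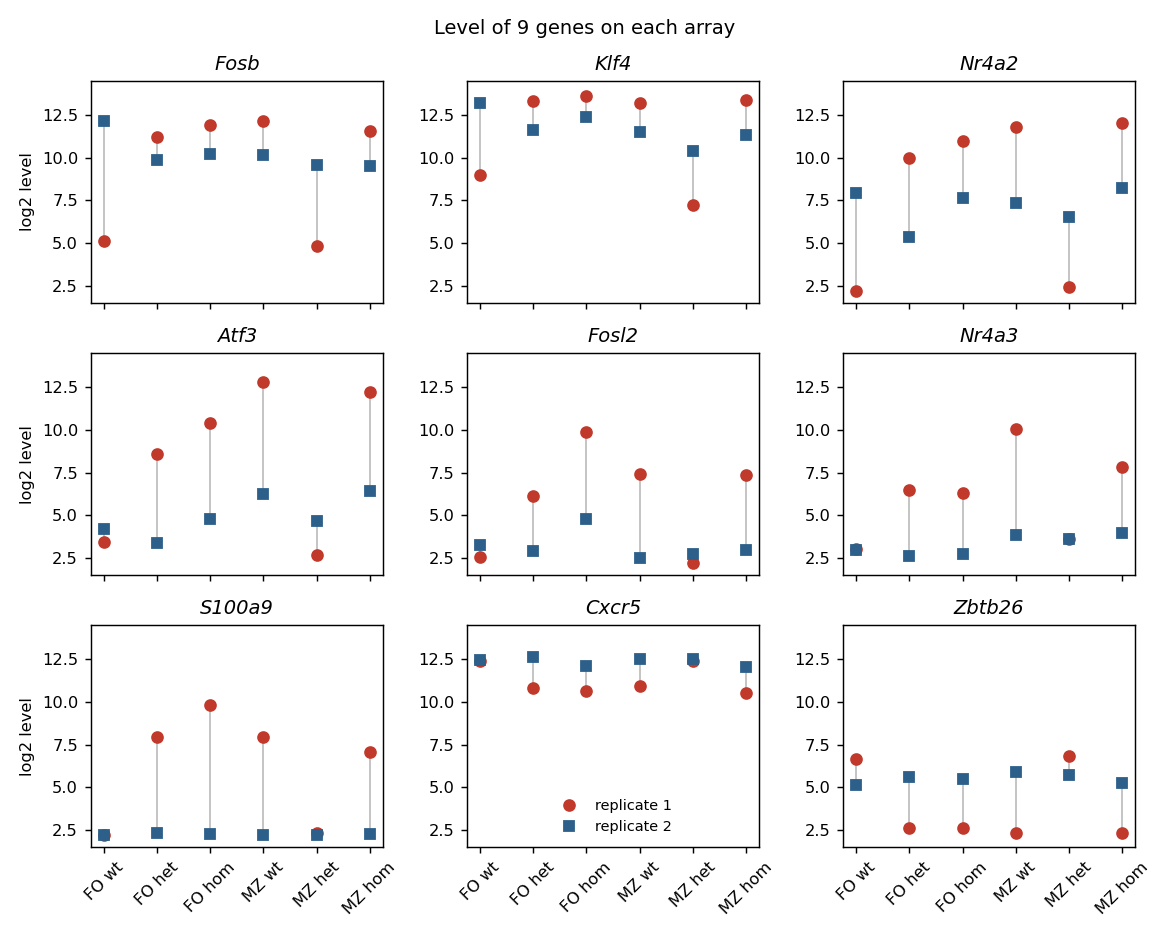
Log2 level (y axis) of 9 genes on each array in the 6 groups (x axis), circles for replicate 1 and squares for replicate 2. Atf3, Fosl2, Nr4a3 and S100a9 are high on replicate 1 of FO het, FO hom, MZ hom and MZ wt and low on FO wt and MZ het, whereas Fosb, Klf4 and Nr4a2 have their lowest levels on replicate 1 of FO wt and MZ het. Cxcr5 and Zbtb26 are low on replicate 1 of the 4 groups in which Atf3 is high.

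Of 20 other tested immediate early genes, 10 were moved up and 1 (Id3) was moved down, 15 had a positive mean, and the median was 1.16. Rgs1, which encodes a brake on chemokine receptor signalling, read 8.12 and 5.34 on FO het replicates 1 and 2, 8.28 and 5.64 in FO hom, and 7.93 and 4.11 in MZ hom. The MZ hom difference, 3.82, exceeded both FO differences, 2.78 and 2.64, by more than 1. Rgs2, of the same family, differed by 1.98 ± 0.38 (SD, n = 3 pairs). Rhob, an immediate early small GTPase, differed by 2.15 ± 0.46. Per1, a clock gene that also responds to cyclic AMP and glucocorticoids, read 11.05 and 8.90, 11.37 and 8.97, and 10.61 and 8.02, a difference of 2.38 ± 0.22. The other moved-up members, named to complete the count after their values were seen, were Bhlhe40, Crem, Csrnp1, Gem, Klf4 and Klf6. Of 13 tested circadian clock genes, a list added after the values were seen, Per1, Nfil3, Ciart and Bhlhe40 were moved up and the median was 0.20. Core clock genes such as Clock and Arntl, also named after their values were seen, differed by 0.08 ± 0.22 and 0.20 ± 0.28.

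Genes that restrain signalling were mixed. Of 14 tested MAP kinase phosphatases and related inhibitors, 3 (Dusp10, Dusp5 and Errfi1) were moved up and none down, with 8 positive means and a median of 0.51. Dusp10, a phosphatase of JNK and p38, read 8.68 and 6.33 on FO het replicates 1 and 2, 8.98 and 6.18 in FO hom, and 7.79 and 4.24 in MZ hom. Its 3 replicate 1 levels lay above the 3 replicate 2 levels, and the difference was 2.90 ± 0.60. Dusp4 differed by 4.64 in MZ hom, 2.29 in FO hom and 0.82 in FO het, so the FO het pair kept it out of the rule. Errfi1, an inhibitor of epidermal growth factor receptors, differed by 1.79 ± 0.44, and Dusp5, a nuclear ERK phosphatase, by 1.34 ± 0.41. Of 12 tested mRNA decay and signal feedback genes, Pim1 and Trib1 were moved up and Slfn2 moved down, with 8 positive means and a median of 0.49. Pim1, a survival kinase, differed by 1.44 ± 0.21, and Trib1, a pseudokinase, by 1.42 ± 0.33. Socs2, a cytokine signalling inhibitor, differed by 1.28, 0.98 and 2.10.

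Of 15 tested NF-kB subunits, inhibitors and feedback genes, 2 were moved up, none moved down and 12 had a positive mean, with a median of 0.20. Rel, the c-Rel subunit that drives B cell growth, read 11.14 and 8.94 on FO het replicates 1 and 2, 11.03 and 8.68 in FO hom, and 10.76 and 7.96 in MZ hom. Tnfaip3, the A20 inhibitor, read 11.59 and 9.91, 11.79 and 9.77, and 11.57 and 8.78. Both had replicate 1 levels above every replicate 2 level of the 3 groups, with differences of 2.45 ± 0.31 and 2.16 ± 0.57 (SD, n = 3 pairs). Nfkbid differed by 1.12 ± 0.25, with MZ hom at 0.92, and Traf1 by 0.67 ± 0.48. Nfkbia, which encodes the main NF-kB inhibitor and was named after its values were seen, differed by 0.14 ± 0.13.

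Surface genes of activated B cells did not shift as a list. Of 14 tested, 1 (Cd69) was moved up and none down, 5 had a positive mean and the median was -0.13. Cd69, an early antigen that holds lymphocytes in tissue, read 13.47 and 11.78 on FO het replicates 1 and 2, 13.09 and 11.79 in FO hom, and 12.55 and 10.49 in MZ hom, a difference of 1.68 ± 0.38. Slamf1 differed by -0.90 ± 0.01, Pdcd1lg2 by -0.84 ± 0.60 and Gpr183 by 0.84 ± 0.41. The costimulatory ligand Cd86, named after its values were seen, differed by -0.09 ± 0.18. Of 9 tested cytokines and chemokines, 1 (Ccl3) was moved up, 4 had a positive mean and the median was -0.03. Ccl3, a chemokine that attracts T cells and macrophages, read 5.83 and 2.22, 6.52 and 3.01, and 9.49 and 5.02, a difference of 3.86 ± 0.53. Il10 differed by 3.86 in MZ hom (7.17 and 3.31) and lay at the minimum on every FO array. Tnf differed by -0.82 ± 1.13. Of the early response lists, 5 of 11 AP-1 and 3 of 8 EGR and NR4A genes were moved up. So were 10 of 20 other immediate early genes. Whether the cells were in an activated state was not tested, and the 3 groups are described here only by the replicate difference.

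The largest differences were in S100a9 and S100a8, which encode the subunits of calprotectin, an abundant protein of neutrophils. S100a9 read 7.94 and 2.31 on FO het replicates 1 and 2, 9.81 and 2.24 in FO hom, 7.04 and 2.26 in MZ hom, 7.93 and 2.23 in MZ wt, 2.21 and 2.21 in FO wt, and 2.33 and 2.23 in MZ het. S100a8 read 7.55 and 2.60 in FO het, 9.17 and 2.66 in FO hom, 7.63 and 2.42 in MZ hom, 8.11 and 2.46 in MZ wt, 2.60 and 2.61 in FO wt, and 2.50 and 2.50 in MZ het. Both genes were near the minimum on 8 arrays and well above it on replicate 1 of FO het, FO hom, MZ hom and MZ wt. Differences were 6.00 ± 1.42 and 5.56 ± 0.84 (SD, n = 3 pairs). All 4 tested neutrophil markers were moved up, the other 2 being the granule genes Ngp and Camp, at 7.17 and 6.28 on FO hom replicate 1, 3.27 and 4.22 on FO het replicate 1 and 3.97 and 3.77 on MZ hom replicate 1. These 4 passed the filter only through replicate 1 arrays, so this count follows largely from the filter. Among untested markers, Ltf read 3.03 and 2.29 on FO hom replicates 1 and 2. It read 2.29 on both FO het and 2.24 on both MZ hom arrays, and Mmp9 stayed at 3.75 to 3.89 on the 6 arrays. The 10 measured neutrophil markers averaged 3.73 to 4.83 on replicate 1 and 2.41 to 2.44 on replicate 2 of the 3 groups. The granule enzymes Elane and Mpo, the collagenase Mmp8 and the chemokine receptor Cxcr2 lay within 0.5 of the minimum on all 12 arrays. In bulk samples, fewer cells of a type and less RNA per cell cannot be told apart.

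Markers of macrophages and monocytes were also higher on replicate 1, but in all 6 groups. Lyz1 and Lyz2, which encode lysozyme, were moved up, and all 7 tested markers of this list had a positive mean. Lyz1 differed by 2.26, 2.87 and 2.37 in FO het, FO hom and MZ hom, by 4.13 in FO wt, 2.76 in MZ wt and 1.64 in MZ het. The list mean over 13 measured markers was 3.95 to 4.50 on replicate 1 and 3.10 to 3.56 on replicate 2 over all 6 groups, with no overlap. Cd14, Itgam, Fcgr1, C1qc and Ccr2 lay within 0.5 of the minimum on every array. Of 9 measured T cell markers 7, of 7 NK cell markers 6, and all 6 platelet markers lay within 0.5 of the minimum on every array. None of the 2 tested T cell, 1 NK cell, 2 dendritic cell, 2 erythroid, 1 stromal, 6 plasma cell and 2 germinal centre markers was moved, and the plasma cell median was 0.55. At the share of all tested genes that moved, lists this small would hold few or no moved genes, so their absence says little. The 6 follicular and 8 marginal zone markers tested held 1 moved-down gene each, Cxcr5 and S1pr3. Of the 8 marginal zone markers 7 had a negative mean, beside 52.8% of all tested genes, and the median was -0.28. Follicular markers had 3 positive and 3 negative means, with a median of 0.12. The share of other cells was not measured directly, and the part of these markers in the replicate difference was not tested.

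Several of the largest differences were in genes outside the signalling lists. Apol8, an apolipoprotein L family gene, read 8.86 and 2.64 on FO het replicates 1 and 2, 9.04 and 3.52 in FO hom, and 5.85 and 2.22 in MZ hom. Its MZ hom difference, 3.62, was more than 1 below both FO differences, 6.22 and 5.52. C730049O14Rik, a transcript with no assigned role, differed by 4.38 ± 0.23 (SD, n = 3 pairs). Rgcc, a cell cycle regulator, read 9.83 and 4.67, 10.02 and 6.00, and 5.91 and 2.56. Irs2, an adaptor of insulin and interleukin-4 receptors, read 11.62 and 7.65, 11.83 and 8.01, and 11.42 and 7.72, a difference of 3.83 ± 0.13 with little spread between cell types. Gfi1, a transcriptional repressor of blood cells, differed by 3.90 ± 0.40, Plk2, a stress-induced polo-like kinase, by 3.56 ± 0.65, and Tent5c, a poly(A) polymerase of antibody-secreting cells, by 3.50 ± 1.01. Nfil3, a basic leucine zipper factor, differed by 4.25 in MZ hom against 2.19 in FO het and 2.80 in FO hom. Its replicate 2 level was 2.22 in FO het and 2.21 in FO hom, at the minimum, against 3.43 in MZ hom. The sizes therefore cannot be compared between the cell types.

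**Figure D3:**
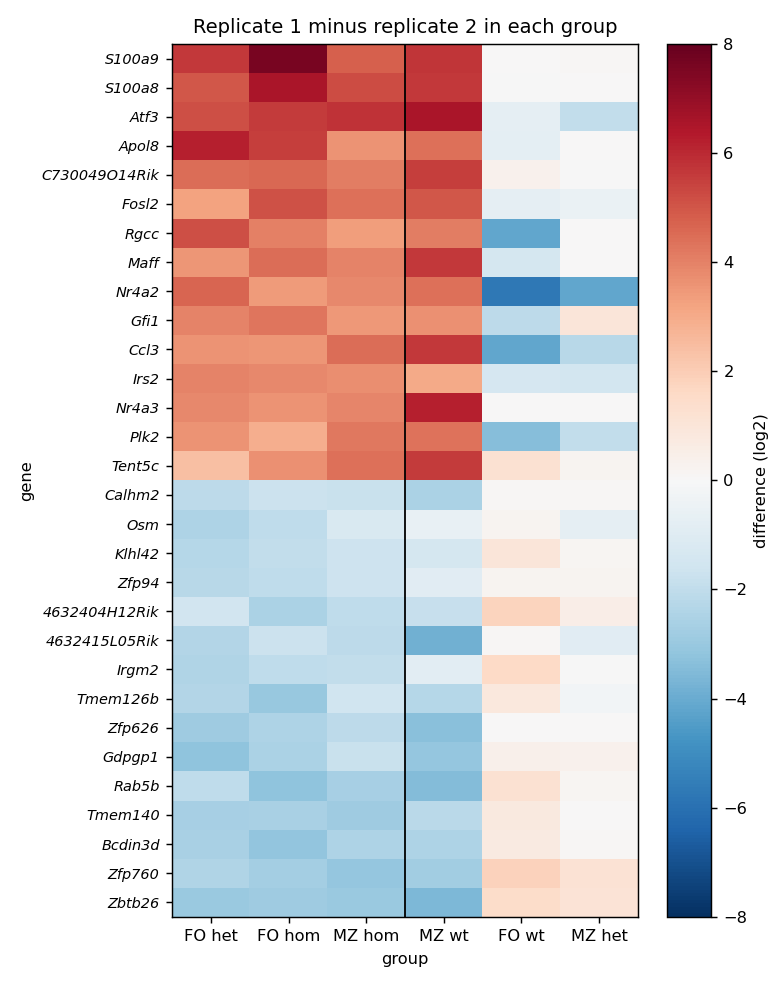
Replicate 1 minus replicate 2 (log2, colour scale) in each group (x axis) for the 15 genes with the largest mean difference in each direction (y axis). The 3 columns left of the line chose the genes. MZ wt repeats their sign in all 30 genes, while FO wt and MZ het show the opposite sign or values near 0 in most, with Nr4a2 at -5.70 and -4.14.

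The moved-down genes held many zinc finger genes. Of 261 tested genes with symbols beginning Zfp, Zscan or Zkscan, a list formed after the values were seen, 28 were moved down and 0 moved up, 207 had a negative mean and the median was -0.40. Over all 9306 tested genes, 89 were moved down, 4915 (52.8%) had a negative mean and the median was -0.02. Zbtb26, a BTB zinc finger gene with a Zbtb symbol and so outside that list, had the largest difference. It read 2.64 and 5.61 on FO het replicates 1 and 2, 2.63 and 5.47 in FO hom, 2.33 and 5.27 in MZ hom, 2.30 and 5.88 in MZ wt, 6.65 and 5.15 in FO wt, and 6.85 and 5.72 in MZ het. All 3 replicate 1 levels lay within 0.5 of the minimum, and the highest levels were on replicate 1 of FO wt and MZ het. Zfp760 read 4.32 and 6.74 in FO het, 4.06 and 6.78 in FO hom, 3.50 and 6.59 in MZ hom, 4.13 and 6.92 in MZ wt, 8.47 and 6.61 in FO wt, and 8.15 and 6.99 in MZ het. For Zfp760 too, replicate 1 of FO wt and MZ het held the highest levels and replicate 1 of the other 4 groups the lowest, and the difference in the 3 pairs was -2.74 ± 0.33. Zfp626 and Zfp94 differed by -2.46 ± 0.39 and -1.97 ± 0.28.

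Among the largest non-zinc-finger differences, Bcdin3d, an RNA methyltransferase gene, read 4.85 and 7.42 on FO het replicates 1 and 2, 3.57 and 6.70 in FO hom, and 3.95 and 6.41 in MZ hom. Rab5b, an early endosome GTPase, read 5.42 and 7.44, 4.63 and 7.87, and 4.04 and 6.70. In both, every replicate 1 level lay below every replicate 2 level of the 3 groups, with differences of -2.72 ± 0.36 and -2.64 ± 0.61 (SD, n = 3 pairs). Tmem140 differed by -2.69 ± 0.15, Gdpgp1 by -2.49 ± 0.71, and Tmem126b, a mitochondrial complex I assembly factor, by -2.32 ± 0.73. Irgm2, an interferon-inducible GTPase, differed by -2.13 ± 0.26, and Osm, the cytokine oncostatin M, by -1.88 ± 0.64. The non-coding transcripts 4632415L05Rik and 4632404H12Rik, and the genes Klhl42 and Calhm2, completed the 15 largest with differences of -2.03, -2.03, -1.95 and -1.85.

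Moved-down genes also included receptors and regulators of naive B cells. Cxcr5, the chemokine receptor that guides B cells into follicles, read 10.84 and 12.62 on FO het replicates 1 and 2, 10.64 and 12.11 in FO hom, 10.53 and 12.03 in MZ hom, 10.95 and 12.51 in MZ wt, 12.43 and 12.47 in FO wt, and 12.41 and 12.53 in MZ het. Its replicate 1 levels of 10.53 to 10.84 lay below every other level, of which MZ wt replicate 1 was the lowest, and the difference was -1.58 ± 0.17. S1pr3, a sphingosine 1-phosphate receptor characteristic of MZ cells, read 4.97 and 7.37, 4.51 and 5.78, and 11.32 and 12.45 in the 3 groups. Id3, an inhibitor of E proteins named after its values were seen, read 9.30 and 11.45, 9.40 and 11.23, and 8.26 and 9.33. Of 19 tested quiescence and homing genes Cxcr5 and S1pr3 were moved down, none was moved up, 11 had a positive mean and the median was 0.13. Cxcr4, of the same list, differed by 0.72, 1.11 and 3.15, and Tsc22d3, a glucocorticoid-induced gene, by 0.83, 0.94 and 1.66. Ddit4, a stress-induced inhibitor of mTORC1, differed by -1.79 ± 0.12, and Slfn2, a gene of lymphocyte quiescence, by -1.54 ± 0.32.

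Stress lists moved little as a whole. Of 14 tested heat shock chaperones 1 (Dnajb4, 1.48 ± 0.23) was moved up, 13 had a positive mean and the median was 0.16, and Hspa1b, the inducible HSP70 gene, differed by 0.90, 2.96 and 1.95. Of 19 tested unfolded protein and integrated stress genes, Ppp1r15a (1.33 ± 0.12), which encodes a phosphatase subunit that restores translation, and Dnajb9 (1.24 ± 0.07), a chaperone of the endoplasmic reticulum, were moved up and Ddit4 moved down, with a median of 0.05. Of 28 tested type I interferon genes none was moved, which is near the small share of all tested genes that moved. Their median was -0.14, with Stat2 at -1.04, -0.89 and -1.69. Of 8 tested BCL2 family genes, Pmaip1, which encodes the pro-apoptotic NOXA, was moved up by 1.61 ± 0.50, with a list median of 0.08. Cell cycle genes moved unevenly. Of 35 tested, Mki67 and Cdc6 were moved up and 32 had a positive mean, but the median was 0.06 in FO het, 0.26 in FO hom and 1.18 in MZ hom.

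Lists of core B cell functions are described by their medians. Moved-up and moved-down genes were 0.967% and 0.956% of all tested genes, so lists of these sizes may hold none by their size alone. The median of 25 tested B cell receptor signalling genes was -0.04, and none was moved. Among 16 tested MHC class II presentation genes, 15 had a negative mean, beside 52.8% of all tested genes, and the median was -0.20. The median was also -0.20 in FO wt, -0.20 in MZ wt and -0.16 in MZ het. The median was -0.05 for 27 cytosolic ribosomal protein genes, 0.00 for 34 respiratory chain genes and 0.08 for 27 ribosome biogenesis genes. For 20 glycolysis and hypoxia genes it was 0.02, with Pfkl, a phosphofructokinase, moved up by 1.05 ± 0.02. The 8 nuclear retained RNAs had a median of -0.30 and no moved gene, with Kcnq1ot1 at -0.71 ± 0.56 and Neat1 at -0.67 ± 0.36.

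**Figure D4:**
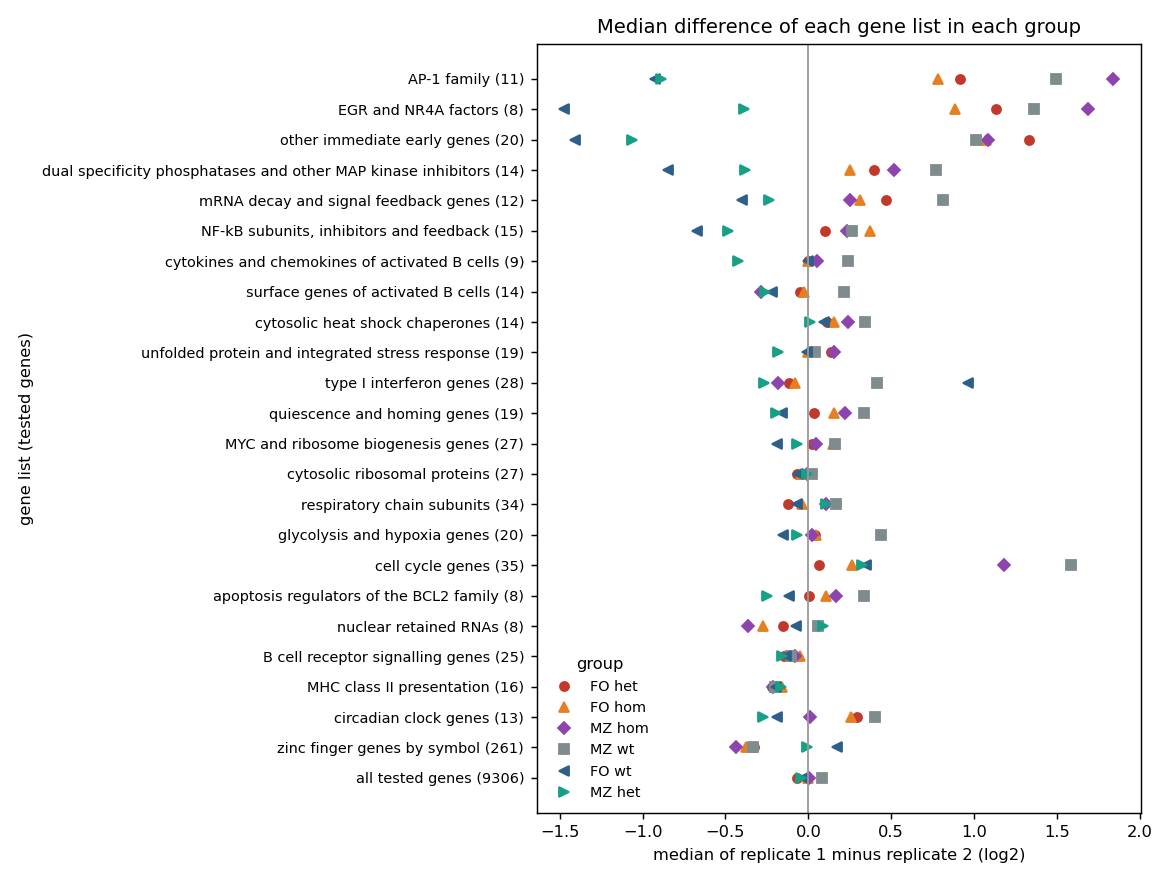
Median of replicate 1 minus replicate 2 (log2, x axis) for each gene list (y axis, number of tested genes in brackets) in each of the 6 groups (symbols). The AP-1, EGR and NR4A and other immediate early lists lie between 0.78 and 1.84 in FO het, FO hom, MZ hom and MZ wt and between -1.47 and -0.39 in FO wt and MZ het, while most other lists lie near 0.

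The same replicate contrast was measured in the 6 arrays that had no part in choosing the genes, and there the 3 groups differed from each other. The groups of the rule were chosen for alike replicate differences, with the values known. Unlike values in the groups left out may therefore follow from that choice. In MZ wt 77 of the 90 moved-up genes were higher on replicate 1 by at least 1, beside 7.25% of all tested genes, and the median was 2.20. Of the 89 moved-down genes 62 were lower by at least 1, beside 7.26%, with a median of -1.35. The exceptions past 1 were Trp53inp2, a moved-up gene at -1.04, and Slc15a2, a moved-down gene that was higher on replicate 1. This pair rests on the array with the low 5' control signal, and the part of that signal was not tested. In FO wt 5 of the 90 were higher by at least 1, beside 2.85%, and 38 were lower, beside 3.25%, with a median of -0.74. Of the 89 moved-down genes 29 were higher by at least 1 in FO wt and 1 was lower. In MZ het 3 of the 90 were higher, beside 1.33%, and 27 lower, beside 2.03%, with a median of -0.40, and of the 89 moved-down genes 3 were higher and 3 lower. Over all tested genes, the MZ wt difference correlated with those of FO het, FO hom and MZ hom at Pearson r of 0.45, 0.55 and 0.58. The FO wt difference correlated with them at -0.11, -0.26 and -0.17 and with that of MZ het at 0.58.

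The limma test of replicate 1 minus replicate 2 over these 6 arrays, with group as a block, called 0 genes (0%) at an adjusted p under 0.05, and 702 genes had an unadjusted p under 0.05. Of the 179 moved genes, 10 had an unadjusted p under 0.05 and the smallest limma adjusted p was 0.616. Limma with array weights called 938 of the 9306 tested genes and 8 of the 179 moved genes. The share of moved genes was the smaller, so these 8 add no support. Where signs differed between the 3 pairs, as for Fosb, this average does not describe any 1 of them. Lyz1, Lyz2 and Mki67 were instead positive in all 3, with Lyz1 at 4.13 in FO wt, 2.76 in MZ wt and 1.64 in MZ het.

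Within the moved-up genes, 24 were lower on replicate 1 by at least 1 in both FO wt and MZ het. They included Fosb, Klf4, Nr4a1, Nr4a2, Ccl3, Cd69, Rgs1, Rgs2, Rhob, Per1, Irs2 and Plk2. Another 14 were lower in FO wt alone, among them Rel, Rgcc, Gfi1 and Maff, and 3 in MZ het alone, which were Atf3, Pim1 and Tnfaip3. A further 42 differed by less than 1 in both groups, among them S100a8, S100a9, Fosl2, Nr4a3, Nfil3, Dusp10, Crem and Apol8. Klf4, a factor of B cell quiescence, was picked after its values were seen to show the first class. It read 13.30 and 11.62 on FO het replicates 1 and 2, 13.64 and 12.37 in FO hom, 13.37 and 11.34 in MZ hom, 8.97 and 13.22 in FO wt, and 7.21 and 10.38 in MZ het. Replicate 1 of FO wt and MZ het had the lowest levels of all arrays. Lyz1, Lyz2, Mki67, Fabp5 and Tent5c were instead higher by at least 1 in FO wt.

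**Figure D5:**
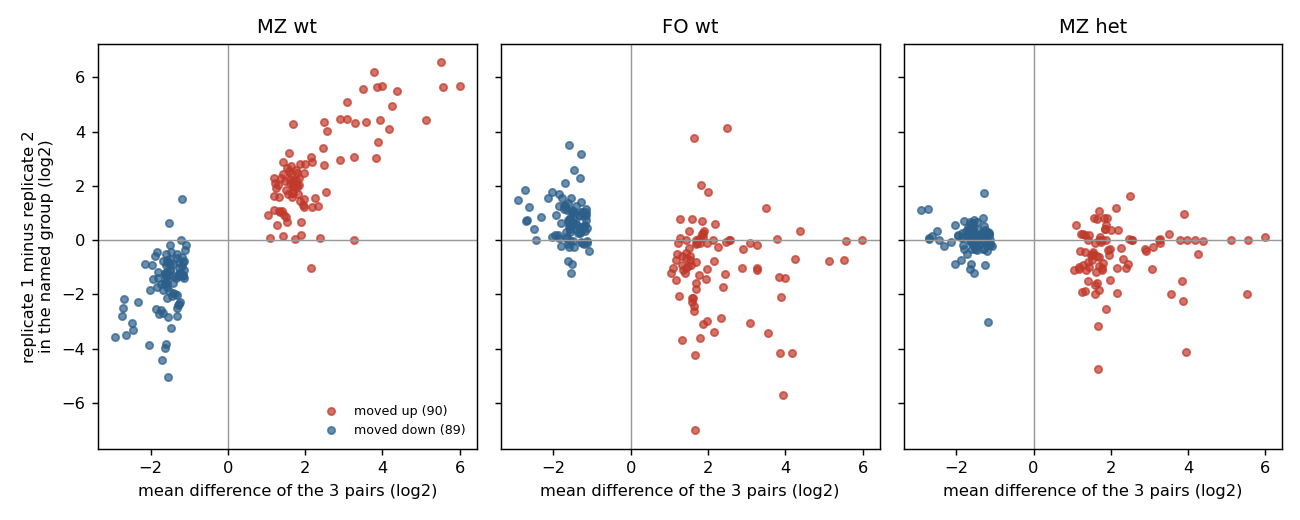
Replicate 1 minus replicate 2 (log2, y axis) in MZ wt, FO wt and MZ het against the mean difference of the 3 pairs that chose the genes (log2, x axis) for the 90 moved-up and 89 moved-down genes, 1 point a gene. In MZ wt 89 of 90 moved-up genes are positive and 86 of 89 moved-down genes negative, whereas in FO wt 66 of the 90 are negative and 73 of the 89 positive.

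Genotype and cell type were compared over the 6 group means of all 12 arrays, which do not use the difference within a group. That difference does enter the residual SD, and the median SE of the MZ minus FO difference was 0.55 for moved genes and 0.15 for all tested genes, so these tests were less sensitive for moved genes. For homozygous deletion minus wild-type, limma called 43 genes (0.462%), of which 0 were moved genes. Of the 179 moved genes 4 (2.24%) had an unadjusted p under 0.05, beside 844 of all 9306 tested genes (9.07%), and the smallest limma adjusted p was 0.115. The median difference was 0.48 over the moved-up and -0.52 over the moved-down genes, beside -0.04 over all tested genes. Both homozygous groups, and no wild-type group, were among those whose arrays chose these genes, so nothing is read from these medians. For heterozygous deletion minus wild-type, limma called 0 genes (0%), with 124 at an unadjusted p under 0.05, and no moved gene was among those 124. Its median difference was -0.43 over the moved-up and 0.05 over the moved-down genes, beside -0.04 over all tested genes. Array weights and the replicate block also gave 0 for heterozygous deletion. Counts of genotype calls changed when single arrays were left out, and their ranges are given with the other settings.

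Between cell types, 4137 genes (44.5%) were called by limma, and 19 of the 179 moved genes were among them, 11 moved up and 8 moved down. S1pr3 was higher in MZ cells by 6.40 ± 0.47 (SE; limma adjusted p = 1.08e-05), and Serpinb9, a granzyme B inhibitor, by 2.62 ± 0.44 (adjusted p = 0.00148). Haspin, a mitotic histone kinase, was higher by 2.28 ± 0.38 (adjusted p = 0.00144). Maf fell by 4.85 ± 0.50 from FO to MZ cells (adjusted p = 8.39e-05), and Cd93, the antigen of the AA4.1 antibody that the FO sort gated against, fell by 3.33 ± 0.43 (adjusted p = 0.000352). Mki67, Cdc6, Chek1, Ect2, Fabp5 and Rem2 were also higher in MZ cells, and Id3, Trib1, Rnf125, Frat2, Gimap9, Mylip and Neurl3 lower. Mr1 was higher by 1.26 ± 0.40 (adjusted p = 0.0322). The different minimum on FO and MZ arrays means that normalization and cell type cannot be told apart here.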

How the data were processed

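The deposited values are log2 levels per probe set; the submitters' processing notes name GCRMA, with a version not given in the sources used here. The minimum was 2.21262 on FO and 2.21924 on MZ arrays, so a difference in normalization cannot be told apart from cell type. Of 45101 probe sets, 64 were controls, 34945 had 1 gene symbol, 932 several and 9211 none, and 34754 matched a mouse RefSeq gene. The probe set with the highest mean stood for a gene (18193 genes), and 9306 genes with log2 4 or more on at least 2 of 12 arrays were tested.

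Replicate 1 minus replicate 2 was taken within each of the 6 groups of 2 arrays. A moved gene had a difference of at least 1 with the same sign in FO het, FO hom and MZ hom. Other contrasts used limma 3.58.1 in R 4.3.3 (lmFit and eBayes), two-sided, with Benjamini-Hochberg adjusted p under 0.05 over all tested genes as the call. Simulated arrays with independent noise were used to test the limma contrasts for homozygous deletion and for the replicate difference in the other 6 arrays. The rule for moved genes was not simulated. The number of arrays limits the precision. Members and lists were chosen with earlier results of these data known, and the clock and zinc finger lists and 2 alternatives were added after the values were seen. Named genes were the 15 largest mean differences in each direction, up to 4 members of each list and up to 5 moved genes of each test with the smallest p; others are named to show a class or count or are marked as chosen after their values were seen. Same-numbered arrays were not paired, since the correlation of their deviations between groups ran from -0.26 to 0.77.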

Additional observations from a re-analysis of the deposited data

Results flagged for a closer look

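In the genes with the largest differences, both cell types of 1 genotype moved in opposite directions between replicates 1 and 2. The difference was not tested, since each group has 1 pair. In heterozygous mice, FO cells were higher on replicate 1 and MZ cells lower for Atf3 (MZ minus FO -7.15, from 5.19 in FO and -1.96 in MZ), Nr4a2 (-8.76), Ccl3 (-5.84), Irs2 (-5.46) and Plk2 (-5.59). Zbtb26 (4.09) and Zfp760 (3.58) went the other way. In wild-type mice, MZ cells were higher on replicate 1 and FO cells lower for Nr4a2 (10.14, from -5.70 in FO and 4.43 in MZ), Ccl3 (9.83), Rgcc (8.25), Plk2 (7.79), Maff (7.07), Gfi1 (5.73) and Irs2 (4.35). Zbtb26 (-5.07), Rab5b (-4.71), Zfp760 (-4.66) and 4632404H12Rik (-3.61) went the other way. The wild-type MZ values rest on the array with the low 5' control signal. The homozygous groups, in which both cell types helped to choose the genes, showed no such opposition.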

How the results depend on the processing

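The 90 moved-up and 89 moved-down genes became 260 and 426 with a difference of 0.5 in each pair, 26 and 6 with 2, and 228 and 241 when each probe set was counted. They were 125 and 124 without FO het, 111 and 119 without FO hom, and 132 and 171 without MZ hom, ranges of 111 to 132 and 119 to 171. The mean of probe sets gave 72 and 63, the MZ wt pair added gave 77 and 62, and genes more than 0.5 above the minimum on all 6 arrays gave 71 and 85, the last 2 settings chosen after seeing the data. In the other 6 arrays limma with array weights called 938 of 9306 tested genes and 8 of 179 moved genes, a smaller share. The 43 homozygous calls were 13 with no filter, 67 with a replicate block and 5 to 272 without 1 array; the 0 heterozygous calls were 1 with no filter and 0 to 79 without 1 array, 79 being without MZ wt replicate 2. No moved gene was called in either genotype contrast under any setting run. Cell type called 10671 genes with no filter, which tests more genes, and 19 moved genes became 12 with no filter, 29 with a replicate block and 11 to 23 without 1 array, 11 and 12 being without MZ het replicates 1 and 2. With the replicate block 4704 genes were called between cell types, 4119 of them shared with the 4137. List medians moved by less than the spread between pairs in 113 comparisons and by more in 25. The causes were not tested.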

Other observations

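On FO wt replicate 1, type I interferon genes were higher than on replicate 2, with a list median of 0.96 over 28 tested genes, beside 0.41 in MZ wt, -0.27 in MZ het, and -0.12, -0.08 and -0.18 in FO het, FO hom and MZ hom. In FO wt 26 and in MZ wt 23 of the 28 were higher on replicate 1. Over all 9306 tested genes, 4057 were higher on replicate 1 in FO wt and 5363 in MZ wt. The MZ wt pair rests on the array with the low 5' control signal. Ifit3, an interferon-induced gene that binds viral RNA complexes, read 10.62 and 8.18 on FO wt replicates 1 and 2, 7.81 and 8.84 in FO het, and 7.54 and 8.47 in FO hom. Usp18, a brake on interferon receptor signalling, read 9.69 and 7.82 in FO wt, 8.47 and 7.21 in MZ wt, and 6.68 and 7.91 in FO het. Ifit1, named after its values were seen, read 6.65 on FO wt replicate 1 and 2.94 to 3.39 on the other 5 FO arrays.

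Dusp1, the immediate early phosphatase of MAP kinases, was also named after its values were seen and was not a moved gene. It read 9.04 and 13.80 on FO wt replicates 1 and 2, 8.27 and 11.64 in MZ het, and 11.40 to 13.46 on the other 8 arrays. Junb, an AP-1 subunit, read 9.46 and 12.24 in FO wt, 6.56 and 9.71 in MZ het and 7.41 and 10.02 in MZ wt.

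Cell cycle genes had a median difference of 1.58 in MZ wt and 1.18 in MZ hom, but 0.35 in FO wt, 0.33 in MZ het, 0.26 in FO hom and 0.06 in FO het. Here too the MZ wt pair rests on the array with the low 5' control signal. Single genes did not all follow these medians. Nusap1, a mitotic spindle gene, read 9.54 and 7.95 on MZ wt replicates 1 and 2, 9.70 and 8.52 in MZ hom, and 7.80 and 7.38 in MZ het. Its differences were larger in FO wt, at 2.92, and FO hom, at 2.20, where replicate 2 read 2.61 and 2.96.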
